A study of Mus musculus with 19 samples.

Results

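A set of 10 inflammasome genes, of the 56980 genes in the count table, was followed in CD11b+ brain cells of mice. They were chosen by name as a pathway, with earlier results of these data known, and comprised the sensors *Nlrp3*, *Aim2*, *Mefv*, *Nlrp1b*, *Nlrc4* and *Naip2*, the adaptor *Pycard*, the caspases *Casp1* and *Casp4*, and the pore-forming *Gsdmd*. All 10 were found in the table and passed the filter on low counts, which left 18739 genes for testing. The 19 libraries came from male mice aged 3 to 4 months and formed 4 groups. LPS was injected intraperitoneally at 4 μg per g of body weight into 5 *PARK7*/DJ-1 KO and 5 wildtype mice, PBS into a further 5 KO and 4 wildtype mice, and all were killed 6 h later. The KO line carries a gene trap in *Park7*, was backcrossed to C57BL/6NCrl, and was compared with wildtype littermates. The trap is carried by every cell of the mouse and is not restricted to microglia. CD11b is an integrin of microglia and other myeloid cells. It was captured with magnetic beads (MACS) from whole brain without olfactory bulb and cerebellum.

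An inflammasome is a cytosolic complex in which a sensor protein meets a microbial or danger signal and, in most cases through the adaptor ASC, gathers and activates caspase-1. Caspase-1 matures the interleukins IL-1β and IL-18 and cuts gasdermin D, whose fragment opens pores in the plasma membrane and can kill the cell by pyroptosis. The product of mouse *Casp4*, also known as caspase-11, binds LPS in the cytosol itself and cuts gasdermin D without a separate sensor. In macrophages and microglia, a first signal such as LPS through TLR4 is known to raise the transcripts of some of these genes, a step called priming, and a second signal is needed for assembly, which transcript levels do not show.

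Total counts per library ranged from 11936364 to 22788884 (median 17211939), and the deposited values were raw counts per gene. *Park7* ranged from 20.6 to 32.1 CPM (counts scaled to the library's size after TMM normalization) in the 9 wildtype mice and from 0.457 to 5.38 CPM in the 10 KO mice, so all labels matched. The 8 microglial markers summed to 24509 to 39222 CPM in the PBS-treated mice and to 10289 to 16651 CPM in the LPS-treated mice, and none of them was at 0 in a group. The 6 markers of border macrophages summed to 473 to 636 CPM at PBS and 272 to 518 CPM after LPS, and the 5 B cell markers to 19.4 to 38.9 CPM and 2.45 to 13.4 CPM. Libraries WT PBS 2, KO PBS 1, WT LPS 2 and KO LPS 1, 1 in each group, stood apart. Their 12 markers of oligodendrocytes, astrocytes, neurons and endothelium summed to 2912 to 3897 CPM against 364 to 1813 CPM in the other 15. Of the 10 inflammasome genes, the lowest value of the group lay in that library for 10 genes in WT PBS, 6 in KO PBS, 7 in WT LPS and 9 in KO LPS. Results are therefore also given without these 4 libraries where that moves them.

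The promoters of 4 genes are shown because *Casp4* and *Nlrp3* rose after LPS while *Casp1*, the neighbour of *Casp4* on chromosome 9, was not called, and because *Mefv* had the largest log2 fold change (log2FC) of the 10 genes. A RefSeq table on GRCm38.p6 held 12 promoters for 9 of the 10 genes, each from 250 bases before to 50 bases after a transcript start. The 250 bases before the start are printed 5′ to 3′ on the strand of the gene, with capitals for matches on either strand to the kappaB consensus, the motif bound by NF-κB. *Nlrp3* has a pair of RefSeq starts, and the upstream one is shown.
*Casp4*, chr9:5308599-5308848, plus strand: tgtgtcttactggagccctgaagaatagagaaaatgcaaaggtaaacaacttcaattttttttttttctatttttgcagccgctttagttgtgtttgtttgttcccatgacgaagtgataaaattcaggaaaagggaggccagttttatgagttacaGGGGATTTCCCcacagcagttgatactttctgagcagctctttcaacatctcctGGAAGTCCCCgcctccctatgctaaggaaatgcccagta
*Nlrp3*, chr11:59541319-59541568, plus strand: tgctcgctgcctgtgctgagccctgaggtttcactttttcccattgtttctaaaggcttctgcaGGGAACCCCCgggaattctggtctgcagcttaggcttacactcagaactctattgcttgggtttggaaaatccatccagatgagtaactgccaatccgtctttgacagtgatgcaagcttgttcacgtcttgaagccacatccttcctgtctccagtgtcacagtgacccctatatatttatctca
*Casp1*, chr9:5298267-5298516, plus strand: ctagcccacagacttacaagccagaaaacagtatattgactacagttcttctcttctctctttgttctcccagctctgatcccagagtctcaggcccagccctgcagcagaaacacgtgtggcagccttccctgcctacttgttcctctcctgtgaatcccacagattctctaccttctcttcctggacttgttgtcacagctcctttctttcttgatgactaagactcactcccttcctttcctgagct
*Mefv*, chr16:3718125-3718374, minus strand: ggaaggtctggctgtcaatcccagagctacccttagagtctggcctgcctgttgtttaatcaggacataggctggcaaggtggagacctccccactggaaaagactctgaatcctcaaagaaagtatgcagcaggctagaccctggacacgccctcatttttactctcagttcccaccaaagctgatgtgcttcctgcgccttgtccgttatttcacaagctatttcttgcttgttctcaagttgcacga
The *Casp4* window held 3 matches, of which GGGGATTTCC and GGGATTTCCC overlapped and began 93 and 92 bases before the start, and GGAAGTCCCC began 39 bases before it. The second RefSeq start of *Casp4* lies close by, and its window held the same 3. The *Nlrp3* window shown held GGGAACCCCC, 186 bases before the start, and the window of the other *Nlrp3* start held no match. In all, 3 of the 12 promoters held a match, but 2 of these are the overlapping windows of *Casp4*. Counted by gene, 2 of the 9 genes with a promoter had a match. No match was found in the *Casp1* or *Mefv* window or in those of the other 5 genes with a promoter, and 8.46% of all 32851 promoters of the table held at least 1. The motifs of a GAAA repeated after any 2 bases, of TTCNNNGAA and of TGANTCA, written for interferon-regulatory factors, STAT proteins and AP-1, matched none of the 12 promoters and 3.44%, 8.3% and 7.81% of all promoters. A match describes letters in a window and not binding, and no match says only that the letters are not in that window.

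The first comparison asked how the 10 genes differed between LPS- and PBS-treated mice within each genotype. In wildtype mice 4 genes rose (*Nlrp3*, *Mefv*, *Naip2*, *Casp4*), 1 fell (*Nlrp1b*) and 5 did not pass the test (*Aim2*, *Nlrc4*, *Pycard*, *Casp1*, *Gsdmd*). The threshold was an adjusted p under 0.05 with |log2FC| of at least 0.5 in edgeR's quasi-likelihood test. In KO mice, the same 4 genes rose and *Nlrp1b* fell. Of all genes tested, 18.4% rose and 17.4% fell in wildtype mice, and 20.1% rose and 19% fell in KO mice. The median log2FC of the 10 genes was 0.30 in wildtype and 0.27 in KO mice, against -0.06 and -0.01 over all genes tested. The 4 genes that rose did not overlap between treatments in either genotype, which held for 20.8% of all genes tested in wildtype and 16.2% in KO mice in that direction. As given above, the microglial marker sum was lower in every LPS-treated than in any PBS-treated mouse, and its part in these results was not tested. In bulk RNA, fewer cells of a type and less RNA per cell cannot be told apart.

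**Figure D1:**
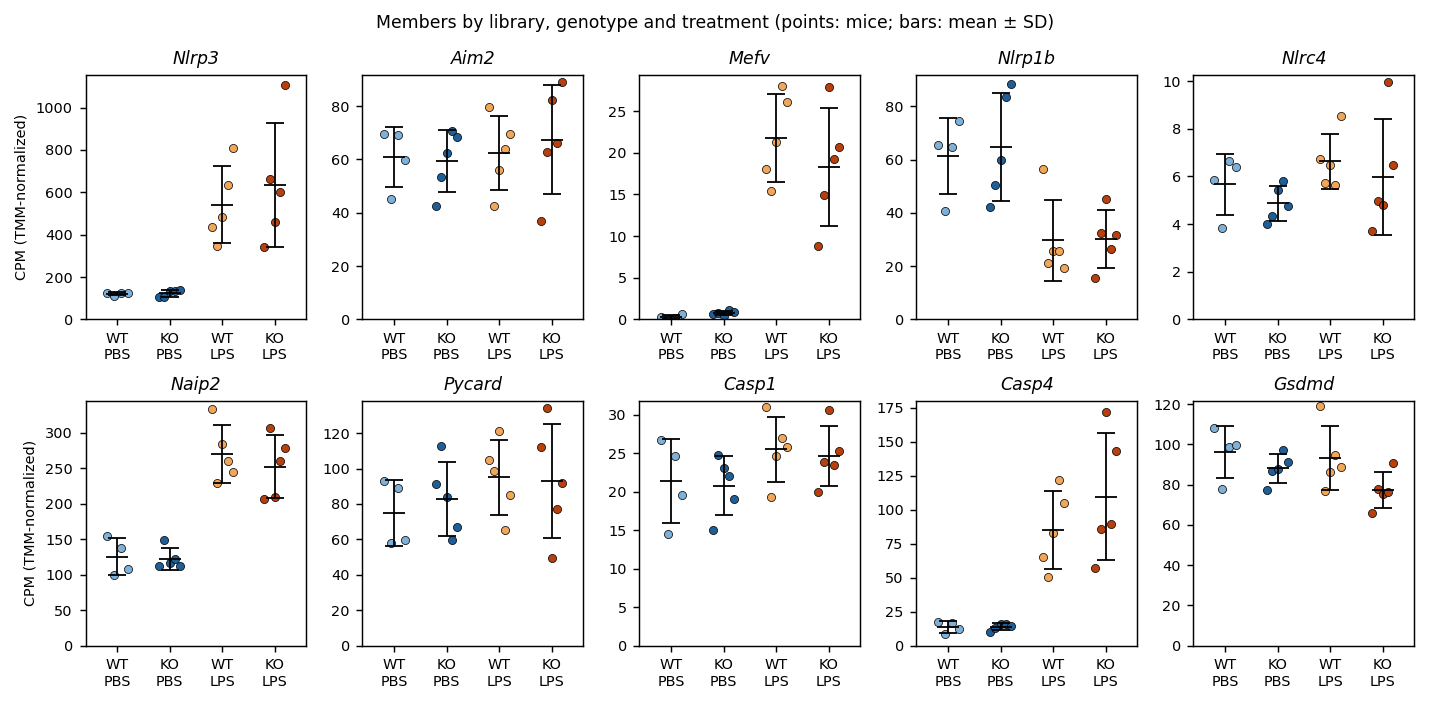
Normalized level (CPM, linear axes from 0) of each of the 10 genes in the 19 libraries, by genotype and treatment; points are mice, horizontal lines the group mean and bars the SD. *Nlrp3*, *Mefv*, *Naip2* and *Casp4* lie higher in every LPS-treated mouse than in any PBS-treated mouse, while *Aim2*, *Pycard*, *Casp1* and *Gsdmd* overlap between treatments.

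*Nlrp3* (ENSMUSG00000032691, GRCm39 chromosome 11, 59432394 to 59457782, plus strand) encodes the sensor that responds to potassium efflux and many other forms of cell damage. At PBS it measured 124, 110, 126 and 125 CPM in the 4 wildtype mice and 108, 105, 133, 135 and 138 CPM in the 5 KO mice. After LPS it measured 436, 347, 484, 635 and 808 CPM in wildtype and 342, 661, 459, 601 and 1106 CPM in KO mice. The lowest LPS-treated mouse thus lay above the highest PBS-treated mouse in both genotypes, and the spread was far wider after LPS, with an SD of 182 CPM against 7.37 CPM in wildtype and 292 CPM against 16 CPM in KO mice. The log2FC was 2.16 (SE 0.283, adjusted p = 5.32e-06, edgeR), a 4.46-fold rise, in wildtype and 2.36 (SE 0.262, adjusted p = 5.88e-07, edgeR) in KO mice.

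*Mefv* (ENSMUSG00000022534, chromosome 16, 3525082 to 3535961, minus strand) encodes pyrin, a sensor of the action of certain bacterial toxins. It was the least abundant of the 10 genes at PBS, with 6, 0, 2 and 10 counts in the wildtype mice and 11, 16, 8, 21 and 17 in the KO group. After LPS the counts were 301, 234, 353, 430 and 306 in wildtype and 156, 261, 466, 343 and 287 in KO mice. No LPS-treated mouse came near a PBS-treated one. The mean level was 0.266 ± 0.269 CPM (SD, n = 4) in wildtype at PBS, with 2 of the 4 mice under 3 counts, and 21.7 ± 5.30 CPM (SD, n = 5) after LPS. In KO mice it was 0.768 ± 0.261 CPM (SD, n = 5) at PBS and 18.3 ± 7.08 CPM (SD, n = 5) after LPS. The log2FC was 6.30 (SE 0.544, adjusted p = 3.85e-08, edgeR) in wildtype and 4.56 (SE 0.433, adjusted p = 8.53e-08, edgeR) in KO mice, and its size rests on the few counts at PBS. In wildtype mice it was 7.09 without WT PBS 4 and 5.92 without WT PBS 2.

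Pyrin is known from neutrophils and monocytes, and markers of these cells moved in the same direction as *Mefv*. The 8 neutrophil markers summed to 52.5 to 97.6 CPM in wildtype and 20.9 to 185 CPM in KO mice at PBS, and to 160 to 453 CPM in wildtype and 100 to 447 CPM in KO mice after LPS, and none of the 8 was at 0 in any group. The 6 monocyte markers summed to 136 to 331 CPM at PBS and 243 to 661 CPM after LPS. *Fn1*, the most abundant of the 6 and also made by other cells, alone measured 96.6 to 297 CPM at PBS and 78.5 to 424 CPM after LPS. It weighs heavily in this sum and was not called, with a log2FC of 0.50 in wildtype and 0.49 in KO mice. The other monocyte markers rose in both genotypes, by unlike amounts. *Ccr2* had a log2FC of 0.79 in wildtype and 0.75 in KO mice, *Vcan* 2.54 and 2.66, and *Chil3* 2.92 and 2.20. *Plac8* and *Ly6c2* rose most, by 6.36 and 5.26 in wildtype and by 5.49 and 4.91 in KO mice. Of the 8 neutrophil markers, *Cxcr2* rose most, by 4.17 and 4.00, and *Mmp8*, *S100a8* and *S100a9* rose in both genotypes. *Ly6g*, *Camp* and *Ngp* were not called in either genotype, and *Retnlg* was called in KO mice but not in wildtype. With the neutrophil sum as a covariate, the log2FC of *Mefv* was 5.39 in wildtype and 3.61 in KO mice (adjusted p = 1.37e-06 and 2.65e-05, edgeR), but the covariate itself moved with the treatment. Changes in the share of neutrophils or monocytes and in *Mefv* per cell cannot be told apart in these data. The 7 markers of T and NK cells summed to at most 3.06 CPM in any mouse.

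**Figure D2:**
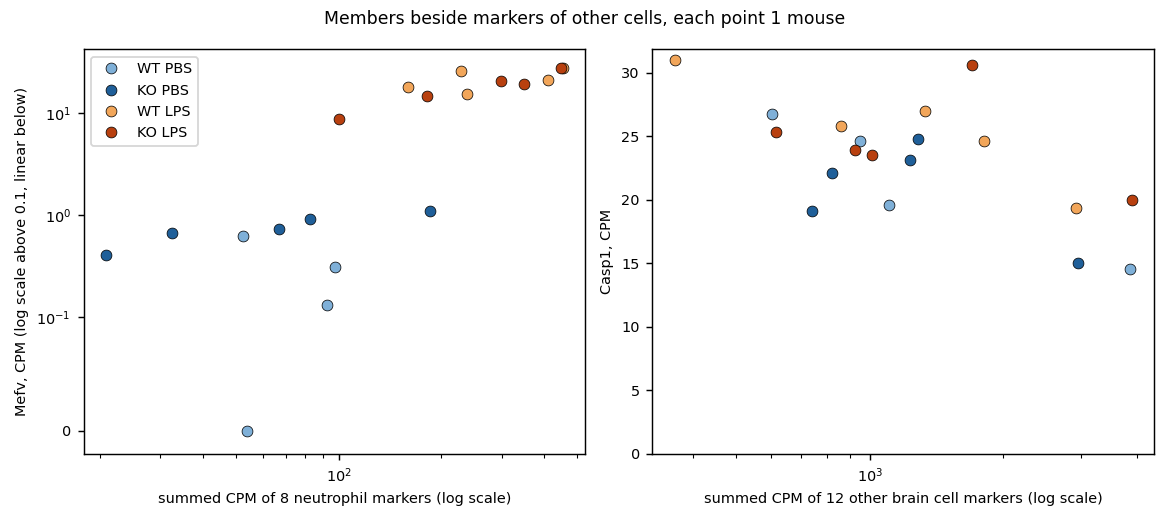
Left, *Mefv* (CPM, logarithmic above 0.1 and linear below) against the summed CPM of 8 neutrophil markers (logarithmic); right, *Casp1* (CPM) against the summed CPM of 12 markers of other brain cells (logarithmic); each point is 1 mouse, coloured by group. *Mefv* was 8.77 CPM in the lowest LPS-treated mouse and 1.10 CPM in the highest PBS-treated one, the neutrophil sums were 20.9 to 185 CPM at PBS and 100 to 453 CPM after LPS, and the 4 mice at the right of the second panel have *Casp1* levels of 14.5 to 20 CPM.

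*Naip2* (ENSMUSG00000078945, chromosome 13, 100278929 to 100338694, minus strand) encodes the receptor of the rod protein of bacterial secretion systems, which then engages NLRC4. It measured 155, 99.6, 138 and 108 CPM in wildtype and 112, 149, 117, 122 and 112 CPM in KO mice at PBS. After LPS the values were 333, 229, 284, 260 and 245 CPM in wildtype and 206, 307, 210, 260 and 278 CPM in KO mice. Both genotypes showed no overlap between treatments. The log2FC was 1.11 (SE 0.156, adjusted p = 1.18e-05, edgeR) in wildtype and 1.04 (SE 0.145, adjusted p = 8.48e-06, edgeR) in KO mice.

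Of its paralogs in the same chromosomal cluster, 1 was called, in the other direction. *Naip6*, a flagellin receptor, fell with a log2FC of -0.70 in wildtype (adjusted p = 0.0223) and -0.91 in KO mice (adjusted p = 0.00252, edgeR). *Naip5*, the other flagellin receptor, had a log2FC of -0.43 in wildtype (adjusted p = 0.106) and -0.498 in KO mice (adjusted p = 0.0434, edgeR), where it missed the fold threshold alone, and was not called. *Naip1* was not tested, with at most 7 counts in a mouse. How reads shared by such near-identical copies were assigned is not given in the sources used here, so the split between *Naip2*, *Naip5* and *Naip6* is uncertain.

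*Nlrc4* (ENSMUSG00000039193, chromosome 17, 74732433 to 74766165, minus strand), the partner that the NAIP proteins recruit, stayed low in all groups. Its means were 5.67 ± 1.28 CPM (SD, n = 4) in wildtype and 4.87 ± 0.755 CPM (SD, n = 5) in KO mice at PBS, and 6.63 ± 1.16 CPM (SD, n = 5) and 5.98 ± 2.43 CPM (SD, n = 5) after LPS. The log2FC of 0.22 (SE 0.254) in wildtype and 0.30 (SE 0.239) in KO mice did not pass the test, with adjusted p = 0.527 and 0.337 (edgeR). *Nlrc4* shares 867 exonic bases with *Slc30a6* on the opposite strand, and whether counting used strand is not given in the sources used here.

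*Nlrp1b* (ENSMUSG00000070390, chromosome 11, 71043928 to 71121559, minus strand), which encodes a sensor held in check by the peptidases DPP8 and DPP9, was the only 1 of the 10 genes that fell. At PBS it measured 65.4, 40.7, 64.8 and 74.4 CPM in wildtype and 42.0, 50.4, 59.8, 83.6 and 88.2 CPM in KO mice. After LPS it measured 56.4, 21.0, 25.8, 25.5 and 19.4 CPM in wildtype and 15.4, 32.3, 45.0, 26.3 and 31.8 CPM in KO mice. Most LPS-treated mice lay under every PBS-treated mouse, but WT LPS 1 and KO LPS 3 lay within the range at PBS, so the groups overlapped in both genotypes. The log2FC was -1.05 (SE 0.322, adjusted p = 0.0129, edgeR) in wildtype and -1.10 (SE 0.307, adjusted p = 0.00609, edgeR) in KO mice. Without WT LPS 1 it was -1.42 in wildtype mice. The paralog *Nlrp1a* had a log2FC of -0.56 in wildtype (adjusted p = 0.104) and -0.58 in KO mice (adjusted p = 0.067, edgeR) and was not called. How reads shared by these paralogs were assigned is not given in the sources used here, so their split is uncertain.

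*Aim2* (ENSMUSG00000037860, chromosome 1, 173178445 to 173293930, plus strand), the sensor of double-stranded DNA, ranged from 36.8 to 89.2 CPM over all mice. Its mean was 60.9 ± 11.4 CPM (SD, n = 4) in wildtype at PBS and 62.3 ± 13.9 CPM (SD, n = 5) after LPS, and 59.5 ± 11.6 CPM (SD, n = 5) and 67.4 ± 20.3 CPM (SD, n = 5) in KO mice. The log2FC was 0.03 (95% interval -0.41 to 0.47) in wildtype and 0.18 (95% interval -0.24 to 0.60) in KO mice. It was not called in either genotype.

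*Pycard* (ENSMUSG00000030793, chromosome 7, 127588558 to 127593039, minus strand) encodes ASC, the adaptor that links sensors to caspase-1. At PBS it measured 92.8, 58.1, 88.8 and 59.9 CPM in wildtype and 91.0, 113, 83.9, 59.7 and 67.0 CPM in KO mice, and after LPS 105, 98.7, 121, 65.3 and 85.2 CPM in wildtype and 112, 134, 49.6, 76.9 and 91.9 CPM in KO mice. The treatments overlapped in both genotypes, with 3 of the 5 wildtype mice after LPS above every wildtype mouse at PBS. The log2FC was 0.34 (SE 0.254, adjusted p = 0.308, edgeR) in wildtype and 0.16 (SE 0.238, adjusted p = 0.617, edgeR) in KO mice. Over 10 alternative settings it ran from 0.20 to 0.69 in wildtype and from 0.07 to 0.53 in KO mice, and *Pycard* was called in 0 of them. *Pycard* shares 485 exonic bases with the predicted transcript *Gm45205* on the opposite strand.

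The caspases lie next to each other on the plus strand of chromosome 9, with 1537 bases between the end of *Casp1* (ENSMUSG00000025888, 5298508 to 5307290) and the start of *Casp4* (ENSMUSG00000033538, 5308828 to 5336783). *Casp4* measured 17.7, 8.79, 17 and 12 CPM in wildtype and 9.76, 13.2, 15.6, 16 and 14.5 CPM in KO mice at PBS. After LPS it measured 65, 50.8, 82.7, 122 and 105 CPM in wildtype and 57.5, 85.6, 172, 89.3 and 143 CPM in KO mice. Every LPS-treated mouse lay above every PBS-treated mouse. The log2FC was 2.62 (SE 0.326, adjusted p = 2.95e-06, edgeR), a 6.13-fold rise, in wildtype and 2.98 (SE 0.303, adjusted p = 1.96e-07, edgeR), a 7.91-fold rise, in KO mice. With the neutrophil marker sum as a covariate, which itself moved with the treatment, the log2FC was 1.98 in wildtype (adjusted p = 0.00026) and 2.23 in KO mice (adjusted p = 0.000168, edgeR).

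*Casp1*, the effector of the canonical inflammasomes, was not called. It measured 26.7, 14.5, 24.6 and 19.6 CPM in wildtype and 15, 24.8, 23.1, 22.1 and 19.1 CPM in KO mice at PBS, and 31.0, 19.3, 24.6, 27.0 and 25.8 CPM in wildtype and 20, 23.9, 30.6, 23.5 and 25.3 CPM in KO mice after LPS. The groups overlapped, with the lowest value of each group in the library rich in markers of other brain cells. The log2FC was 0.26 (95% interval -0.11 to 0.63, adjusted p = 0.294, edgeR) in wildtype and 0.24 (95% interval -0.10 to 0.59, adjusted p = 0.277, edgeR) in KO mice. Both intervals ended under a log2FC of 1.

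Within each library the level of *Casp4* per transcript length could be set against that of *Casp1*, a ratio that does not depend on depth. At PBS it was 0.645 to 0.736 in wildtype and 0.567 to 0.807 in KO mice. After LPS it was 2.23 to 4.81 in wildtype and 3.05 to 6.02 in KO mice. *Casp1* was thus the more abundant of the pair in all 9 PBS-treated mice and *Casp4* in all 10 LPS-treated mice, also in the 4 libraries rich in markers of other brain cells.

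*Gsdmd* (ENSMUSG00000022575, chromosome 15, 75733974 to 75739257, plus strand), the substrate of both caspases, measured 108, 77.6, 98.7 and 99.9 CPM in wildtype and 77.2, 86.8, 87.6, 97.3 and 91.3 CPM in KO mice at PBS. After LPS it measured 119, 76.8, 86.4, 94.9 and 88.8 CPM in wildtype and 66.1, 77.9, 75.4, 76.3 and 91.0 CPM in KO mice. The values overlapped between treatments. The log2FC was -0.04 (95% interval -0.29 to 0.20, adjusted p = 0.825, edgeR) in wildtype and -0.19 (95% interval -0.42 to 0.04, adjusted p = 0.214, edgeR) in KO mice. Among the 10 genes it had the narrowest intervals.

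**Figure D3:**
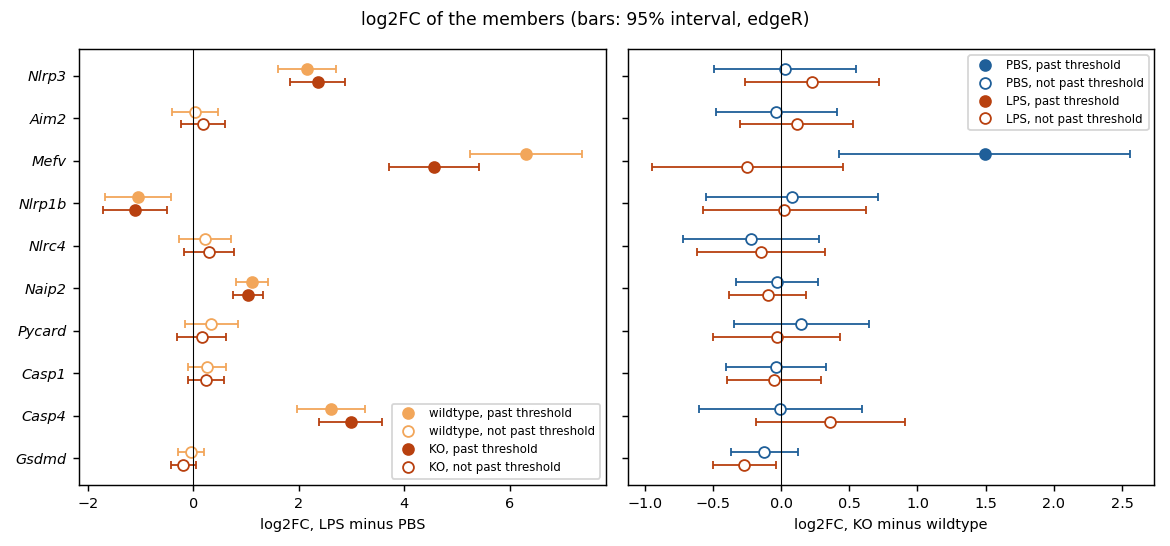
log2FC of the 10 genes for LPS minus PBS in each genotype (left) and for KO minus wildtype under each treatment (right); bars are 95% intervals from edgeR and filled points passed the threshold of that comparison. *Nlrp3*, *Mefv*, *Naip2* and *Casp4* lie to the right and *Nlrp1b* to the left of 0 in both genotypes, and only *Mefv* at PBS is filled on the right.

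The levels of the 10 genes were compared with each other as mean CPM per kb of the canonical transcript. In wildtype mice at PBS, *Gsdmd* led with 48.6 CPM per kb, above *Nlrp3* with 30.2, *Aim2* with 29.3, *Naip2* with 19.7, *Pycard* with 18.2, *Nlrp1b* with 14.9, *Casp1* with 13.9, *Casp4* with 9.63, *Nlrc4* with 1.19 and *Mefv* with 0.0869 CPM per kb. Neighbours in this order overlapped between mice, except that *Gsdmd* lay above *Nlrp3*, *Casp4* above *Nlrc4* and *Nlrc4* above *Mefv* without overlap. The KO mice at PBS kept this order apart from *Pycard* (20.1) and *Naip2* (19.3), which changed places and overlapped.

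After LPS the order per kb changed. In wildtype mice *Nlrp3* led with 135 CPM per kb, followed by *Casp4* with 59.1, *Gsdmd* with 47.2, *Naip2* with 42.5, *Aim2* with 30.0, *Pycard* with 23.0, *Casp1* with 16.7, *Nlrp1b* with 7.17, *Mefv* with 7.09 and *Nlrc4* with 1.39 CPM per kb. *Nlrp3* lay above *Casp4*, and *Mefv* above *Nlrc4*, without overlap, while the other neighbours overlapped. In KO mice *Nlrp3* (158) and *Casp4* (76.0) also came first and *Nlrc4* (1.26) last, but there the ranges of *Nlrp3* and *Casp4* overlapped. The order, the first place at PBS included, depends on the transcript chosen. The canonical transcript of *Pycard* has 4122 bases and the shortest complete one 827 bases. Per kb of the shortest complete transcript, wildtype mice at PBS had 90.5 CPM for *Pycard*, 55.2 for *Aim2* and 52.9 for *Gsdmd*, so *Gsdmd* came first by canonical but not by shortest length.

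**Figure D4:**
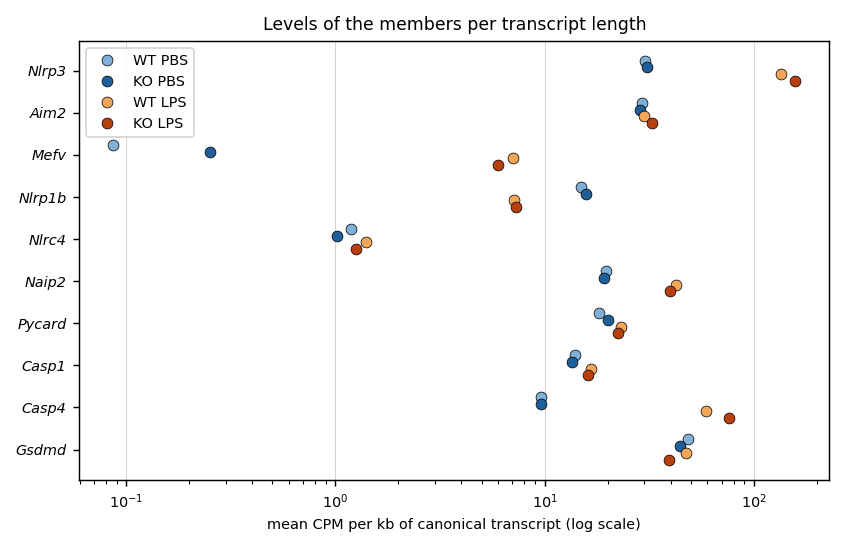
Mean level of each gene per kb of canonical transcript (CPM per kb, logarithmic axis) in the 4 groups. The points of *Nlrp3*, *Casp4*, *Naip2* and *Mefv* are split by treatment, from 30.2 to 135 CPM per kb for *Nlrp3* in wildtype mice, whereas those of *Aim2*, *Casp1* and *Gsdmd* lie close together.

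The second comparison asked whether the 10 genes differed between KO and wildtype mice given the same treatment. After LPS, 0 of the 10 genes passed an unadjusted p under 0.05 with |log2FC| of at least 0.5, where 1.31% of all genes tested did. At any fold change, 1 gene, *Gsdmd*, had an unadjusted p under 0.05, against 2.57% of all genes, and its adjusted p was 1.00 (edgeR). An adjusted p under 0.05 was reached by 0.0107% of all genes after LPS and 0.00534% at PBS, and by 0 of the 10. *Gsdmd* was lower in KO mice by a log2FC of -0.27 (SE 0.119, 95% interval -0.50 to -0.04, unadjusted p = 0.0351, edgeR), with group means of 77.3 ± 8.93 CPM (SD, n = 5) for KO against 93.2 ± 15.9 CPM (SD, n = 5) for wildtype. The groups overlapped, as for all 10 genes, since WT LPS 2, 3 and 5, with 76.8, 86.4 and 88.8 CPM, lay within the KO range. Over all genes, the KO values lay wholly above the wildtype values in 0.0587% and wholly below them in 0.16%. Left out, the 4 libraries rich in other brain cell markers gave -0.28 (unadjusted p = 0.0301, edgeR). Over 10 alternative settings the log2FC ran from -0.33 to -0.24 and the unadjusted p from 0.0022 to 0.0546 (edgeR or DESeq2). The p was not under 0.05 with DESeq2 size factors (unadjusted p = 0.0525, edgeR), in DESeq2 (unadjusted p = 0.0546) or with the groups compared only (unadjusted p = 0.0527, edgeR). It was also not under 0.05 without WT LPS 1, WT LPS 4 or any 1 of KO LPS 1 to 4, being highest without WT LPS 1 (log2FC -0.17, unadjusted p = 0.149, edgeR).

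*Casp4* and *Nlrp3*, which rose most after LPS beside *Mefv*, had higher means in KO than in wildtype mice, within the spread. *Casp4* averaged 109 ± 46.6 CPM (SD, n = 5) after LPS in KO mice against 85.2 ± 29.1 CPM (SD, n = 5) in wildtype, a log2FC of 0.36 (95% interval -0.19 to 0.91). *Nlrp3* averaged 634 ± 292 CPM (SD, n = 5) against 542 ± 182 CPM (SD, n = 5), a log2FC of 0.23 (95% interval -0.26 to 0.72). These intervals include 0 and do not show that the genotypes were alike. Without KO LPS 5 the log2FC of *Nlrp3* turned to -0.07, and without KO LPS 3 that of *Casp4* was 0.14. Of the other genes, *Mefv* had a log2FC of -0.25, and the remaining 6 lay between -0.15 and 0.11.

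At PBS, 1 of the 10 genes passed the same threshold, where 0.8% of all genes tested did, 0.224% being higher and 0.576% lower in KO mice. *Mefv* was higher in KO mice by a log2FC of 1.49 (SE 0.545, 95% interval 0.43 to 2.56, unadjusted p = 0.0131, adjusted p = 1.00, edgeR). The call rests on the counts given above, 0 to 10 in wildtype and 8 to 21 in KO mice. In CPM the groups overlapped, as WT PBS 4 had 0.621 CPM and KO PBS 3 had 0.406 CPM. Leaving out WT PBS 4 raised the log2FC to 2.27, and leaving out WT PBS 2, which had 0 counts and was rich in markers of other brain cells, lowered it to 1.10. Without the 4 libraries rich in such markers it was 1.11 (unadjusted p = 0.0249, edgeR). In the 5 KO mice at PBS, *Mefv* was 0.675, 0.739, 0.406, 1.10 and 0.918 CPM where the neutrophil markers summed to 32.6, 67.0, 20.9, 185 and 82.5 CPM. In the 4 wildtype mice it was 0.313, 0, 0.131 and 0.621 CPM where the sums were 97.6, 54.0, 92.2 and 52.5 CPM. Among the 5 KO mice the order of the *Mefv* values was thus that of the neutrophil sums throughout. Among the 4 wildtype mice, at 0 to 10 counts of *Mefv*, the highest value fell in the mouse with the lowest sum. The part of neutrophils in this difference was not tested. With that sum as a covariate, the log2FC was 1.54 (unadjusted p = 0.00455, edgeR). The other 9 genes had log2FC values between -0.22 and 0.15 at PBS.

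The third comparison asked whether the response to LPS differed between the genotypes. The interaction of genotype and LPS had an adjusted p under 0.05 for 0 of the 10 genes and for 0.0% of all genes tested, in edgeR and also in DESeq2. At an unadjusted p under 0.05 it found 1 of the 10 genes and 0.961% of all genes. This was *Mefv*, whose LPS log2FC was smaller in KO than in wildtype mice by -1.74 (SE 0.651, unadjusted p = 0.0152, adjusted p = 1.00, edgeR). It was -2.51 without WT PBS 4 and -1.34 without WT PBS 2. The difference uses the same PBS counts as above, and after LPS the genotypes overlapped, with 15.4 to 28.0 CPM in wildtype and 8.77 to 27.9 CPM in KO mice. For the other 9 genes the interaction lay between -0.18 and 0.37 on the log2 scale.

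Around the 10 genes, 47 further genes of the pathway were taken by role, and 42 of them were tested. In wildtype mice 20 rose, 8 fell and 14 did not pass the test, and in KO mice 20 rose, 7 fell and 15 did not pass. *Casp8*, which fell in wildtype mice with a log2FC of -0.56, missed the fold threshold in KO mice with -0.47. The shares over all genes were, as above, 18.4% and 17.4% in wildtype and 20.1% and 19% in KO mice. Between the genotypes, 0 of the 42 were called after LPS or at PBS, where 1.31% and 0.8% of all genes were. At any fold change, 1 of the 42 had an unadjusted p under 0.05 after LPS, against 2.57% of all genes. This was *Zbp1*, a sensor of Z-form nucleic acids, with a log2FC of -0.48 in KO mice (unadjusted p = 0.0121, adjusted p = 1.00, edgeR).

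The substrates of caspase-1 differed from each other. *Il1b* rose from 22.7 CPM at PBS to 701 CPM after LPS in wildtype mice, a log2FC of 4.95 (SE 0.482, adjusted p = 1.56e-07, edgeR), and by 4.73 (SE 0.431, adjusted p = 5.07e-08, edgeR) in KO mice. *Il18* had a mean of 20.1 CPM at PBS and 20.4 CPM after LPS in wildtype mice and was not called in either genotype. *Il1a*, whose product is not cut by caspase-1, rose by 3.02 in wildtype and 3.38 in KO mice. Both inhibitors of these cytokines rose: *Il1rn*, the interleukin-1 receptor antagonist, had a log2FC of 8.47 in wildtype and 8.57 in KO mice, and *Il18bp*, which binds interleukin-18, had 2.06 and 1.60.

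Upstream of the caspases, 3 guanylate-binding proteins, a family that opens LPS-bearing membranes to caspase-11, were listed, and the 3 rose. *Gbp2* had a log2FC of 4.88 in wildtype and 4.64 in KO mice, *Gbp5* 4.13 and 4.02, and *Gbp3* 2.72 and 2.65. The immunity-related GTPase *Gm12250* rose by 2.91 and 2.47. *Tlr4*, the surface receptor of LPS, fell, with a log2FC of -1.06 in wildtype and -1.09 in KO mice, while its adaptor *Myd88* rose by 1.29 and 1.52. *Irf1*, a transcription factor known to act on several of these genes, rose by 1.81 in wildtype and 1.45 in KO mice, and *Irf2* and *Irf8* were not called.

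Genes that act on NLRP3 differed in direction. *P2rx7*, the ATP-gated channel whose opening triggers potassium efflux, fell, with a log2FC of -1.60 in wildtype and -1.77 in KO mice. *Nek7*, the kinase that binds NLRP3 during assembly, fell too, with -0.82 and -1.13. *Panx1*, a pannexin channel, rose by 0.62 and 0.67, while *Txnip* and *Brcc3* were not called. Of the partners of the other sensors, *Pstpip1*, which binds pyrin, rose by 2.29 in wildtype and 2.17 in KO mice, and *Dpp9* rose by 0.67 and 0.66, whereas *Dpp8*, *Pkn2* and *Rhoa* were not called.

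Further sensors and late steps moved in both directions. *Zbp1* rose by 4.88 in wildtype and 4.75 in KO mice, *Nlrc5*, the transactivator of MHC class I genes, by 3.53 and 3.62, *Nlrp12* by 1.56 and 1.93, and *Nlrx1* by 0.79 and 0.81. *Nlrc3* fell, with a log2FC of -1.45 and -1.88. *Ninj1*, which ruptures the plasma membrane after pore formation, rose by 0.76 and 0.99, and *Chmp4b*, of the ESCRT machinery that repairs gasdermin pores, by 1.12 and 0.99. *Gsdme*, another pore-forming gasdermin, fell, with -0.85 and -1.23, and *Casp12* and *Serpinb1a* were not called.

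**Figure D5:**
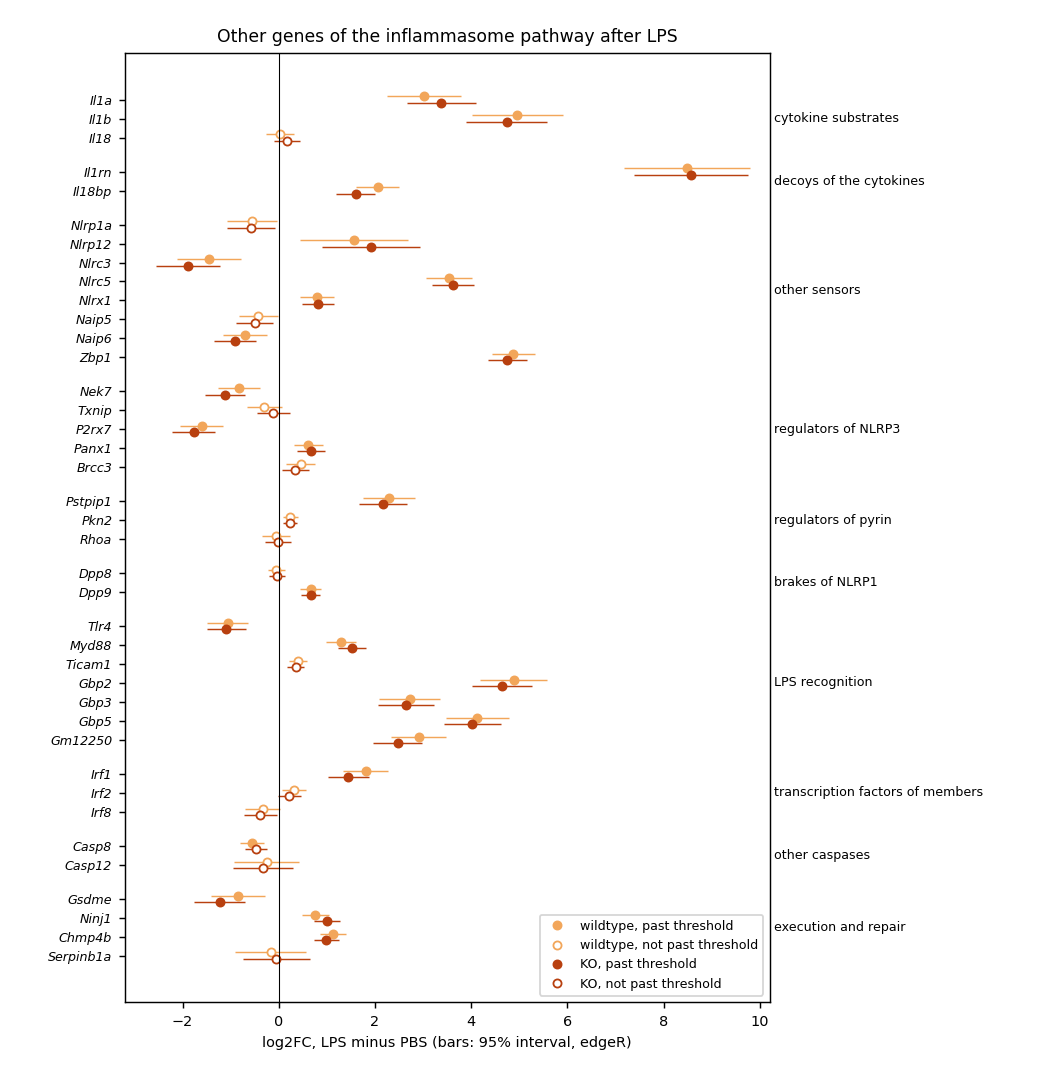
log2FC of LPS minus PBS (bars are 95% intervals from edgeR) for 39 of the 42 tested genes of the pathway, grouped by role, in wildtype and KO mice; filled points passed the threshold. The genotypes lie side by side for each gene, with *Il1rn* farthest to the right (8.47 and 8.57) and *Nlrc3* and *P2rx7* farthest to the left.

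The genes whose log2 CPM deviated most like each of the 10 over the 19 libraries were found as those with the smallest root-mean-square distance after centring. For *Nlrp3* they were *Rab20* (distance 0.148), *Alpk1* (0.199) and *Ifrd1* (0.208), with LPS log2FC values of 2.29, 2.33 and 2.10 in wildtype mice. For *Casp4* they were *Map3k8* (0.247), *Birc3* (0.255) and *Icam1* (0.267), and for *Naip2* *Pgd* (0.128), *Wdr3* (0.141) and *Rdh13* (0.142). For *Mefv* they were *Fgr* (0.657), *Trem1* (0.666) and *Fpr2* (0.688). For *Nlrp1b* they were *Maml3* (0.255), *Nav3* (0.258) and the inflammasome sensor *Naip6* (0.261). All 19 libraries share the treatment contrast and the depth differences, so such likeness is a description only.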

How the data were processed

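RNA of MACS-isolated CD11b+ brain cells from 19 mice was depleted of ribosomal RNA and sequenced in paired reads from stranded libraries. The authors trimmed the reads with Cutadapt (given as 0.17.4 in the submitters' processing notes), aligned and counted them with STAR 2.7.9a on GRCm39 with an Ensembl annotation, and deposited raw counts per gene, not normalized. Whether counting used strand is not given in the sources used here. Total counts ranged from 11936364 to 22788884, and 3 counts, the limit taken for a signal, were 0.139 to 0.256 CPM. This limit covers counting error only. No 2 libraries of a group were alike within sampling noise.

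The analysis used edgeR 4.0.16 in R 4.3.3, following filterByExpr (minimum count 10, minimum total 15) and TMM, in 1 quasi-likelihood fit of 4 groups over 18739 genes. Adjustment was by Benjamini-Hochberg over all of them. LPS against PBS was called at an adjusted p under 0.05 and |log2FC| of at least 0.5, KO against wildtype by the study's rule of an unadjusted p under 0.05 at this fold change, and the interaction at an adjusted p under 0.05. The SE is the log2FC divided by the square root of F, the 95% interval is a normal one, and likeness between genes used log2 CPM with a prior count of 2. The fit was tested on simulated counts.

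The 10 genes, the pathway list and the marker lists were chosen with earlier results of these data known. Every member gene is named whatever its values, together with *Park7* and listed pathway genes, of which 3 are counted but not reported here by name. The marker lists were those of microglia, neutrophils, monocytes, border macrophages, T and NK cells, B cells and other brain cells. Gene names and positions were those of GENCODE M39 (GRCm39), which named 56236 of the 56980 genes, and lengths from its canonical transcripts. Promoters came from RefSeq on GRCm38.p6. Alternatives were DESeq2 1.42.0, other size factors, other filters and thresholds, the groups compared only, a replicate block, marker sums as covariates and each mouse left out. Leaving out the 4 libraries rich in other brain cell markers was chosen after seeing the data.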

Additional observations from a re-analysis of the deposited data

Results flagged for a closer look

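Dixon's test was applied to log2 CPM in 40 groups of 4 or 5 mice (10 genes in 4 groups). In these, 2 values lay farther from the rest of their group than its critical value allows, where chance flags about 1 in 20 groups. *Nlrp3* in WT PBS 2 had 110 CPM against a median of 125 CPM in the other 3 wildtype mice at PBS. The gap was 0.872 of the group's range in log2 CPM, and this library is 1 of the 4 rich in markers of other brain cells. *Nlrp1b* in WT LPS 1 had 56.4 CPM against a median of 23.3 CPM in the other 4 wildtype mice after LPS. The gap was 0.733 of the range in log2 CPM. WT LPS 1 had the lowest sum of neutrophil markers (160 CPM) and of other brain cell markers (364 CPM) among the wildtype mice after LPS.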

How the results depend on the processing

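The LPS calls of the 10 genes were the same in every alternative that could test them: *Nlrp3*, *Mefv*, *Naip2* and *Casp4* rose and *Nlrp1b* fell in both genotypes, also when each mouse was left out in turn, with *Mefv* not tested where at least 10 counts in every library were required. At PBS, 0 of the 10 genes were called between genotypes with an adjusted p, and 0 with that filter, which left *Mefv*, the gene called otherwise, untested. With an unadjusted p, the interaction was called for 1 of the 10 genes, *Mefv*. Leaving out each mouse gave log2FC values of 1.10 to 2.27 for *Mefv* at PBS and -0.33 to -0.17 for *Gsdmd* after LPS. The interaction could not be fitted with the groups compared only. Without TMM factors, the median log2FC of all genes after LPS was -0.15 in wildtype and -0.12 in KO mice, against -0.06 and -0.01.

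The replicate numbers of the labels name different animals, and same-numbered mice did not all deviate together (correlations of -0.57 to 0.30 between genotypes after LPS, -0.29 to 0.30 at PBS, -0.04 to 0.58 between treatments in wildtype and 0.03 to 0.54 in KO mice). With the number as a replicate block, 4 genes rose and 1 fell in both genotypes, and *Mefv* at PBS had a log2FC of 1.49.

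Over all genes, KO against wildtype after LPS gave 102 higher and 143 lower genes, but 70 and 209 without TMM factors, 347 and 507 without a filter, 42 and 69 with at least 10 counts in every library, and 36 and 69 with the groups compared only. Without KO LPS 1 there were 204 higher, and without KO LPS 5 there were 164 higher and 270 lower. At PBS, 42 were higher and 108 lower, but 241 and 439 without a filter, 6 and 52 with at least 10 counts in every library, and 72 and 163 with the other brain cell markers as a covariate. The block gave 189 lower. Leaving out WT PBS 2 gave 94 higher, WT PBS 4 gave 72 higher and 67 lower, KO PBS 3 gave 67 lower, and leaving out the 4 libraries gave 80 higher. The cause was not tested. Depth limits *Mefv* at PBS and *Nlrc4*, and no other of the 10 genes had a library under 100 counts.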
